A study of Homo sapiens with 3 samples.

Results

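The replication-dependent histone genes were taken as the protein-coding genes of the RefSeq GRCh38 table with symbol H1-1 to H1-6, or with H2AC, H2BC, H3C or H4C followed by a number. That rule found 69 of 20037 coding genes, made up of 6 H1, 17 H2A, 18 H2B, 13 H3 and 15 H4 genes. For each of them the nearest summit of the HMG-box transcription factor SOX4 was read from chromatin immunoprecipitation sequencing (ChIP-seq) of BT549, a human cell line derived from a triple-negative breast tumour. The 3 libraries, called replicates 1, 2 and 3, form 1 group, with the same cell line, serum- and insulin-containing medium and Abcam SOX4 antibody. The labels mark the cells as UT, a term they do not explain, and whether the cultures were separate is not stated, so p-values measure a spread between libraries that could be purely technical. Control libraries (input or IgG) and other conditions were not analysed here, and summit lists hold no markers by which the cell line could be checked.

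Replication-dependent histone genes supply the proteins that package newly copied DNA. H2A, H2B, H3 and H4 form the nucleosome core, and H1 binds the linker DNA between nucleosomes. The genes are short and lack introns in their classic form, sit in clusters, and give mRNAs that end in a stem-loop instead of a poly(A) tail. They are transcribed in S phase at the histone locus body, a nuclear structure organised by the coactivator NPAT.

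Summits numbered 1368 for replicate 1, 1713 for replicate 2 and 4430 for replicate 3. A summit is the single base of highest signal in a peak, and its deposited score is −log10-transformed significance (p or q), so read depth is unknown. Distances run from a summit to the closer end of a gene, and a gene was counted when that distance was at most 1 kb. Scores are given with the percent of summits of the same list that scored lower, since the lists differ in length.

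In each library a larger share of the histone genes than of all coding genes had a summit within 1 kb. Replicate 1 had a summit within 1 kb of 15 of the 69 genes (21.7%), against 3.07% of all coding genes. Replicate 2 had one at 9 of 69 (13.0%), against 2.76%, and replicate 3 at 46 of 69 (66.7%), against 13.3%. The mean over libraries was 33.8% ± 28.8 for the histone genes and 6.38% ± 6.00 for all coding genes (SD, n = 3). Every histone gene reached in replicate 1 or 2 was also reached in replicate 3, so the genes reached by any library were again 46 (66.7%, against a background of 15.1%). At least 2 libraries reached 19 genes (27.5%, against 3.20%), and all 3 reached 5 (7.25%, against 0.838%). Replicate 3 alone accounted for 27 of the 46 (58.7%), against 2070 of the 3025 coding genes reached by any library (68.4%), and without it any library reached 19 genes and both reached 5. With replicate 3 shortened to its 1368 highest-scoring summits, the length of the shortest list, that library reached 24 histone genes. The share of all coding genes is not given for the shortened list or without replicate 3. No test was made of these shares, because neighbouring genes share summits and the members are known from earlier results of these data.

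**Figure D1:**
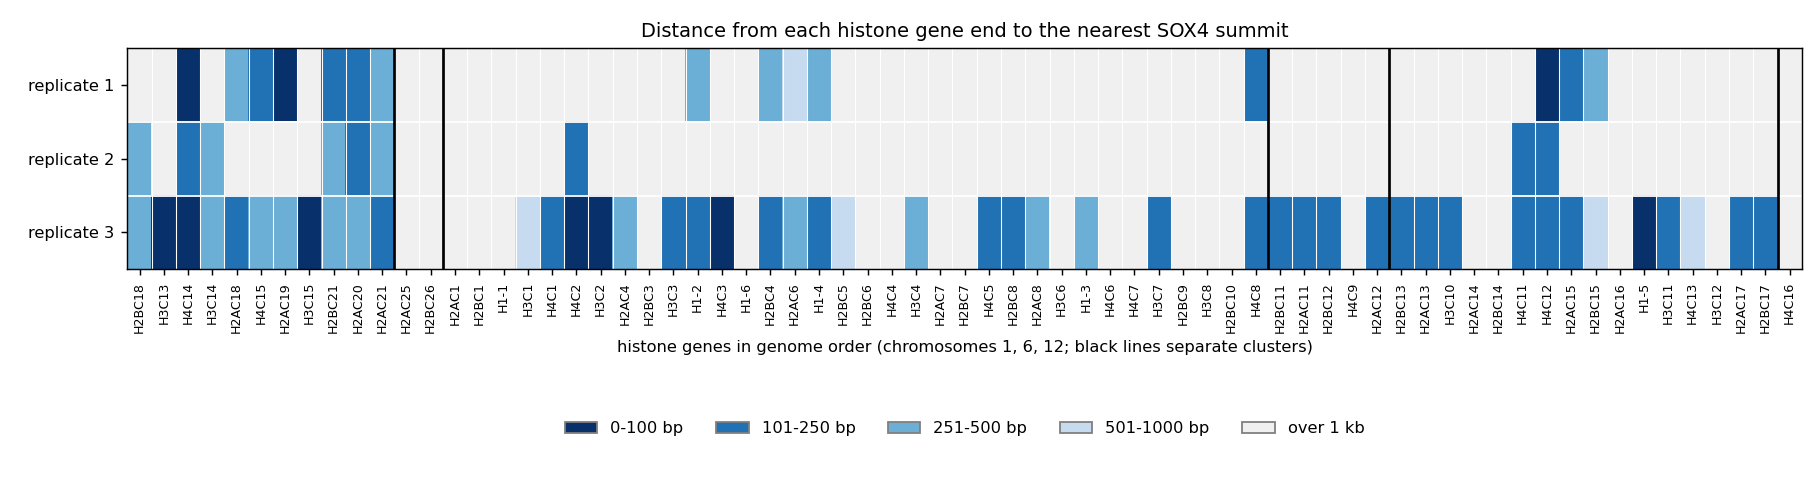
Distance in bp from the nearer end of each of the 69 histone genes (columns, in genome order) to the nearest summit of each library (rows), in 5 distance classes. The row of replicate 3 is filled at 46 genes, that of replicate 1 at 15 and that of replicate 2 at 9, and the columns reached by several libraries crowd at the left end, in the chromosome 1 cluster.

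The H4 genes all encode the core histone that pairs with H3. At least 2 libraries reached 6 of the 15, and 2 of these, H4C14 and H4C12, were reached in all 3 libraries. H4C14 lies on chromosome 1 at 149832657 to 149833052, and its summits stood at 149832748 in replicate 1, 149832772 in replicate 2 and 149832623 in replicate 3. The first pair lay 91 and 115 bp into the gene, and the summit of replicate 3 lay 34 bp before the annotated start. Their scores were 12.1, 4.60 and 7.19, above 84.1%, 25.5% and 77.7% of the summits of their lists. The score of replicate 1 was the highest of that library at any histone gene.

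H4C12 lies on chromosome 6 at 27831174 to 27831560, on the minus strand. Its summits stood at 27831570, 27831446 and 27831404 in replicates 1, 2 and 3, which is 10 bp before the start and 114 and 156 bp past it. The scores were 5.34, 5.29 and 19.95, above 37.2%, 40.9% and 98.2% of the lists. The same gene thus sat in the lower part of the lists of replicates 1 and 2 and near the top of that of replicate 3.

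The upstream sequences of these genes are shown because the summits of H4C14 in replicate 3 and of H4C12 in replicate 1 are the ones that fall before an annotated start within the RefSeq promoter window. Each is the 250 bases before the start, 5′ to 3′ on the strand of the gene, from RefSeq GRCh38.p14, with GGTCCG, the core of the H4 promoter element to which the factor HINFP binds, in capitals. H4C14 runs over chr1:149832407-149832656 on the plus strand and H4C12 over chr6:27831561-27831810 on the minus strand.
H4C14: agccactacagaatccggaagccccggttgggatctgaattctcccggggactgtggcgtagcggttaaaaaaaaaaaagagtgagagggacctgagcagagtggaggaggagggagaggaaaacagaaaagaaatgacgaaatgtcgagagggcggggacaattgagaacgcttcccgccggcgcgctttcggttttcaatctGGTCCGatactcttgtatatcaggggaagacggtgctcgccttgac
H4C12: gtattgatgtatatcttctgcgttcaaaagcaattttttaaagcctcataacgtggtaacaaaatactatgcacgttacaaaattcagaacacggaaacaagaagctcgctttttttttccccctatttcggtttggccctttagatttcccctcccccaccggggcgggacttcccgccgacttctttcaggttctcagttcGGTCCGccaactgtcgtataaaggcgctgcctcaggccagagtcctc
The GGTCCG of H4C14 begins 46 bases before the start, so the summit of replicate 3, at 34 bp, lies just past it. In H4C12 it begins 47 bases before the start, and the summit of replicate 1 lies 10 bp before the start.

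H4C11, H4C2, H4C8 and H4C15 were each reached in 2 libraries. H4C11 was reached by replicates 2 and 3 at 203 and 104 bp past its start, and its score of 20.7 in replicate 3, above 98.4% of that list, was the highest of any histone gene in these data, against 4.54 in replicate 2. H4C2 was reached by replicates 2 and 3 at 252 and 301 bp past the start, with scores of 7.50 and 6.92. H4C8 was reached by replicates 1 and 3 at 127 and 143 bp, with scores of 4.40 and 5.32. These 3 genes were therefore reached inside the gene each time, and H4C8 by positions only 16 bp apart. H4C15, on chromosome 1, was reached by replicates 1 and 3 at 128 and 216 bp past its start, with scores of 8.82 and 12.3. A further summit of replicate 3 lay 483 bp before that start.

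Some of these genes have near-identical copies, so the reads behind their summits may not be assigned with certainty. The 300-base promoter windows of H4C14 and H4C15 were identical at 300 of 300 bases. Those of the neighbouring copies H2AC18 and H2AC19 were identical at 299 of 299 bases once shifted by 1, and those of H3C14 and H3C15 at 296 of 296 once shifted by 4. H4C11 and H4C12 were identical at 295 of 300 bases. These windows end 50 bases past the start, and the likeness of the sequence under summits further in was not measured. How reads with several matches were handled is not given in the sources used here.

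The H4 element itself did not separate H4 genes with summits from those without. Of the 13 H4 genes with a RefSeq promoter, 12 held GGTCCG, each on the strand of the gene and with its first base 44 to 47 bases before the start. The exception was H4C7. All 8 such genes with a summit in any library held it, and so did 4 of the 5 with none. Of all 27326 promoters of the same length, 11.2% held GGTCCG on either strand. The 46 bases around the element are shown for H4C2 and H4C8, each reached in 2 libraries, and for H4C4, H4C9 and H4C16, reached in none, to let their likeness be seen, all from RefSeq GRCh38.p14 on the strand of the gene.
H4C2, chr6:26027304-26027349, minus strand: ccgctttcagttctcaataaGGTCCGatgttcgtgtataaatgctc
H4C8, chr6:26285555-26285600, minus strand: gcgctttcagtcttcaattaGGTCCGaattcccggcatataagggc
H4C4, chr6:26189131-26189176, minus strand: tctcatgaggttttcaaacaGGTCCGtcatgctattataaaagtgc
H4C9, chr6:27139216-27139261, plus strand: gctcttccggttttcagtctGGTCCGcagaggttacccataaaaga
H4C16, chr12:14771151-14771196, minus strand: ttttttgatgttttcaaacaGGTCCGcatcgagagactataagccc

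The other H4 genes were reached by replicate 3 alone or by no library. H4C5 had a replicate 3 summit 144 bp past its start with a score of 12.7, above 96.0% of that list. H4C1 and H4C3 had one inside the gene, at 137 and 91 bp from an end, with scores of 6.09 and 6.67. H4C13 had its nearest one at exactly 1000 bp, inside the neighbouring H3C11, and is the member closest to the limit from within.

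H2A and H2B genes encode the dimer partners of the nucleosome core and often share a promoter between diverging genes. Of the H2A genes, 6 of 17 were reached in replicate 1, 2 in replicate 2 and 12 in replicate 3. Of the H2B genes, 3, 2 and 10 of 18 were reached in replicates 1, 2 and 3. H2BC21, H2AC20 and H2AC21, neighbours at the end of the chromosome 1 cluster, were each within 1 kb of a summit in all 3 libraries, but through shared summits. The summits of replicates 1 and 2 at 149887137 and 149887133 lay inside H2AC20, 219 and 215 bp past its start, with scores of 6.05 and 6.73. Replicate 1 had another at 149886477, inside H2BC21 and 205 bp past its start, with a score of 5.48. Replicate 3 had summits at 149886316, 366 bp into H2BC21 (score 7.35), and at 149887707, 258 bp into H2AC21 (score 6.65). All 5 summits thus lay inside one of the 3 genes.

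The space between H2BC21 and H2AC20 held no summit in any library. It is shown because it is the shared promoter of the pair reached in all 3 libraries, at chr1:149886683-149886917 on the plus strand, from RefSeq GRCh38.p14, read towards H2AC20. Capitals mark the TATA box motif TATAAA, the pentamer CCAAT and the octamer ATGCAAAT on either strand.
H2BC21 to H2AC20: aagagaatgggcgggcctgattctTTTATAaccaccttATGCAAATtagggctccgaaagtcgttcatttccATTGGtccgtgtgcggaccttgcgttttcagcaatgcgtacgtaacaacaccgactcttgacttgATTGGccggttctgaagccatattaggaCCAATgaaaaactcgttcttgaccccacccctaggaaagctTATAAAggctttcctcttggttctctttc
A TATA box thus stands near each end of the stretch, next to either gene.

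The same arrangement was seen over the diverging pairs. For 11 H2A and H2B pairs the RefSeq promoters give both strands, with starts that face each other across 193 to 247 bp. Each library had 0 summits between the genes of these pairs. Inside the paired genes lay 4, 1 and 10 summits, spread over 7 of the 11 pairs. In replicate 3, 4 of the 10 were in the H2A gene and 6 in the H2B gene. H2BC11 and H2AC11 had a replicate 3 summit each, 201 and 312 bp past their starts, with scores of 6.995 and 7.05. H2BC13 and H2AC13, and H2BC17 and H2AC17, also had 1 each in replicate 3, with scores of 3.97 and 4.77 and of 3.62 and 3.75. At these 3 pairs the summits lay on both sides of the shared promoter. H2BC12 and H2AC12 lie 247 bp apart and are not among the 11, since the strand of H2AC12 was not known here. Each held 1 replicate 3 summit, and none lay between them.

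At other pairs 1 gene carried the summits. H2BC4 held the summits of replicates 1 and 3 at 319 and 165 bp past its start (scores 5.41 and 5.60), and its partner H2AC6 was counted through them, at 565 and 411 bp. H2AC15 held those of replicates 1 and 3 at 290 and 364 bp (scores 6.85 and 5.38), and its partner H2BC15 was counted through them. H2AC18 and H2AC19, the near-identical copies on chromosome 1, each had summits of replicates 1 and 3 inside the gene, with scores of 4.64 and 8.68 at H2AC18 and 6.47 and 9.21 at H2AC19. H2BC18, annotated over 29682 bp, was reached by replicates 2 and 3 at 320 and 278 bp past its start, with scores of 6.06 and 10.7. The replicate 3 summit of H2BC18 stood above 94.2% of its list.

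H3 genes encode the partners of H4 in the core. Replicate 1 reached 0 of the 13, replicate 2 reached 1 and replicate 3 reached 10. H3C14 was the 1 gene of both, with summits at 149840390 in replicate 2 and 149840373 in replicate 3, which lie 297 and 314 bp beyond its downstream end. Their scores were 7.80 and 4.68, and that of replicate 2 was the highest of that library at a histone gene. H3C10, H3C2 and H3C3 had replicate 3 summits 218, 73 and 249 bp past their starts, with scores of 8.82, 8.61 and 7.56. H3C13 had its replicate 3 summit 80 bp beyond the downstream end (score 5.16), and its nearest in replicate 2 was 1175 bp away.

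The linker histone genes numbered 2 of 6 in replicate 1, 0 in replicate 2 and 4 in replicate 3. H1-2 was reached by replicates 1 and 3 at 259 and 136 bp past its start, with scores of 6.24 and 8.47. H1-4 had that of replicate 1 at 257 bp (score 8.62) and that of replicate 3 at 914 bp, beyond its end (score 6.34). H1-3 and H1-5 were reached in replicate 3 alone, at 372 and 712 bp past their starts. H1-1 and H1-6 were not reached, with nearest summits 3.999 and 3.39 kb away in replicate 3.

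The order of the classes differed between libraries. The mean share over libraries was 40.0% ± 23.1 for H4, 39.2% ± 29.6 for H2A, 33.3% ± 33.3 for H1, 28.2% ± 42.4 for H3 and 27.8% ± 24.2 for H2B (SD, n = 3). In replicate 3 H3 stood highest with 76.9% and H2B lowest with 55.6%, while in replicate 1 H2A stood highest with 35.3% and H3 had none. H4 genes had shares of 26.7%, 26.7% and 66.7% in replicates 1 to 3, against 20.4%, 9.26% and 66.7% of the other members. The mean difference was 7.90 ± 8.81 percentage points, within its own spread between libraries (exact sign-flip permutation test over 3 libraries, two-sided p = 0.50, adjusted p = 0.50 over 4 comparisons). With 3 libraries that test cannot give less than 0.25.

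**Figure D2:**
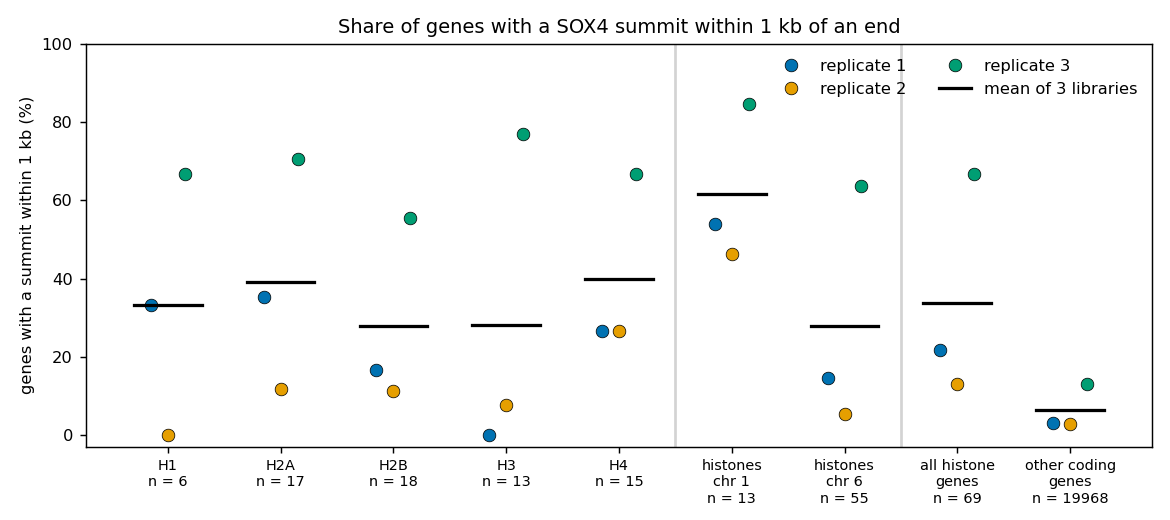
Percent of genes with a summit within 1 kb of an end, by histone class, by chromosome, for all histone genes and for the other coding genes, with 1 point per library and a line at the mean of the 3 libraries. Replicate 3 gives the highest point in every column, and the histone genes of chromosome 1 stand above those of chromosome 6 in each library.

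The members on chromosome 1 were reached more often than those on chromosome 6 in each library. Of the 13 members on chromosome 1, 7 were reached in replicate 1 (53.8%), 6 in replicate 2 (46.2%) and 11 in replicate 3 (84.6%). Of the 55 on chromosome 6, 8 were reached in replicate 1 (14.5%), 3 in replicate 2 (5.45%) and 35 in replicate 3 (63.6%). The difference was 39.3, 40.7 and 21.0 percentage points over the 3 lists, a mean of 33.7 ± 11.004 (SD, n = 3), with chromosome 1 higher in 3 of 3 libraries. The exact sign-flip permutation test over libraries gave a two-sided p of 0.25, the smallest it can give, and 0.333 after adjustment over 4 comparisons. At least 2 libraries reached 9 of 13 members on chromosome 1 and 10 of 55 on chromosome 6. Part of the chromosome 1 cluster consists of the near-identical copies named above, and their part in the difference was not tested.

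Members linked by gaps of at most 500 kb formed 6 groups, of which 4 held summits. The 11 genes from H2BC18 to H2AC21 on chromosome 1 (149782689 to 149887965) were all reached in replicate 3, with 7 in replicate 1 and 6 in replicate 2. The 34 genes from H2AC1 to H4C8 on chromosome 6 (25726063 to 26285534) had 5, 1 and 19 reached in replicates 1 to 3. The 5 genes from H2BC11 to H2AC12 had 0, 0 and 4, and the 16 genes from H2BC13 to H2BC17 had 3, 2 and 12. The last group holds H4C11 and H4C12, and so both of the highest replicate 3 scores of a histone gene.

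Within the spans of these clusters every summit lay next to a histone gene. Replicate 1 had 12 summits in the spans, replicate 2 had 7 and replicate 3 had 42, and all 12, 7 and 42 were within 1 kb of an end of a member. The 1-kb stretches around the gene ends cover 17.6% of the spans, which total 768 kb. The 8 other coding genes that overlap the spans had no summit within 1 kb in any library, as had 84.9% of all coding genes. They include 4 phosphate transporter genes of the SLC17A family, TRIM38, an antiviral signalling regulator gene, and the iron regulator gene HFE, whose nearest summit was 5.68 kb away, next to H4C3 in replicate 3. Joined across libraries by gaps of at most 200 bp, the summits formed 44 regions near members, of which 2 came from all 3 libraries, 13 from 2 and 29 from 1. Replicate 3 alone gave 28 of those 29, and without that library 16 regions were left.

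**Figure D3:**
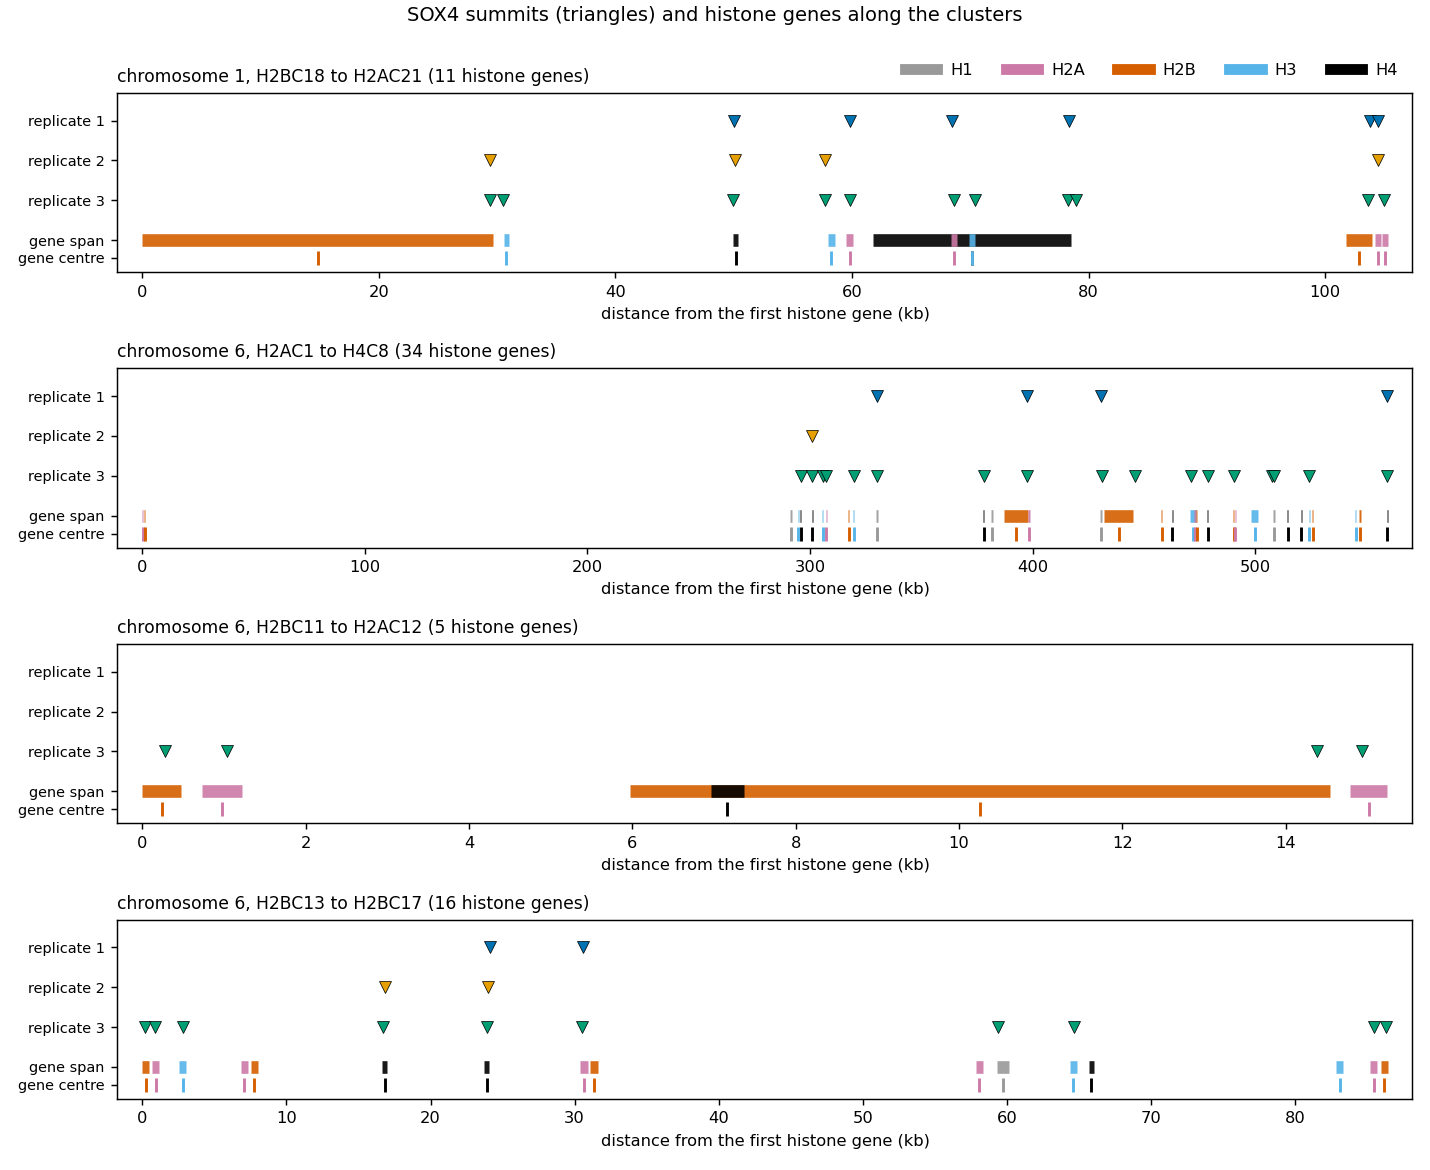
Summits of each library (triangles) and annotated gene spans and centres (coloured by class) along the 4 clusters with summits, in kb from the first histone gene of each. The triangles stand over histone genes or their ends throughout, and the stretch between the H2AC1 and H2BC1 pair at 0 kb and the genes near 300 kb on chromosome 6 is empty.

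The members with no summit within 1 kb in any library numbered 23. They include genes known for expression in the testis, namely H2AC1, H2BC1 and the linker histone gene H1-6. H2AC1 and H2BC1 lay 295 and 294 kb from the nearest summit of replicate 3. The genes that stand apart from the main clusters were not reached either. H2AC25 and H2BC26, a pair at chromosome 1, 228457364 to 228458558, were 98.9 and 98.2 kb from the nearest summit in replicate 3, and H4C16 on chromosome 12 was 32.2 kb from it. Inside the clusters, H4C4, H4C6, H4C7, H4C9, H3C6, H3C8, H2BC6 and H2BC10 were 3.37 to 13.98 kb from a summit of replicate 3. The first gene past the limit was H2AC16, 1078 bp from the replicate 3 summit inside H1-5, followed by H2BC9 at 1253 bp.

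Most summits at histone genes lay inside the genes. Of the 61 summits within 1 kb of a member, 52 (85.2%) were inside an annotated member. By library these were 11 of 12, 6 of 7 and 35 of 42. Some members are annotated over many kb, so the same was counted for the 61 members of at most 1 kb. There 72.7%, 83.3% and 78.4% of the nearby summits lay inside the gene in replicates 1 to 3, while the genes make up 24.3% of the stretches counted. For the 467 other coding genes of at most 1 kb these summits numbered 1 of 5, 3 of 7 and 7 of 15, while the genes make up 27.3% of the stretches.

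Measured from the annotated start, the median position of the summits was 212, 215 and 261 bp into the histone gene in replicates 1 to 3, over 12, 7 and 35 summits within 1 kb of a start. Each summit was assigned to a single gene, a gene it lay inside where possible and otherwise the nearest. For the other coding genes the medians were 9, 27 and 140.5 bp, over 365, 313 and 1762 summits. The difference was 203, 188 and 120.5 bp, a mean of 170.5 ± 43.9 (SD, n = 3), in the same direction in 3 of 3 libraries (exact sign-flip permutation test, two-sided p = 0.25, the smallest possible, adjusted p = 0.333). Among genes of at most 1 kb the direction turned in replicates 2 and 3, with medians of 127, 209 and 261 bp at the histone genes over 11, 6 and 31 summits, against 26, 297 and 271.5 bp at the other coding genes over 3, 5 and 10. Summits past the start made up 91.7%, 100% and 94.3% at the histone genes and 52.9%, 55.9% and 75.3% at the other coding genes (exact sign-flip permutation p = 0.25, adjusted p = 0.333). Among genes of at most 1 kb these were 8 of 11, 6 of 6 and 28 of 31 at the histone genes and 2 of 3, 5 of 5 and 8 of 10 at the other coding genes. Gene length thus moved with both measures, and its part in the differences was not tested further. These positions were compared after they had been seen.

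By class, pooled over libraries, the median position was 127.5 bp for H4 (16 summits), 258 bp for H2A (13), 278 bp for H2B (11), 315.5 bp for H1 (6) and 385 bp for H3 (8). Annotated spans of H4 genes include 396 bp at H4C14 and 387 bp at H4C12, against 731 bp at H1-2. Of the 54 summits within 1 kb of the start of their assigned gene, 3 lay before it, all of them at H4 genes. A summit inside the partner of a diverging pair was counted at that partner only. Summits before the starts of genes such as H2AC6, H2AC8, H2BC15 and H2BC21 are therefore not among the 3. At H2AC6 they lay 565 and 411 bp before the start in replicates 1 and 3. The same gene reached in several libraries contributes a summit for each, so these medians are descriptions.

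**Figure D4:**
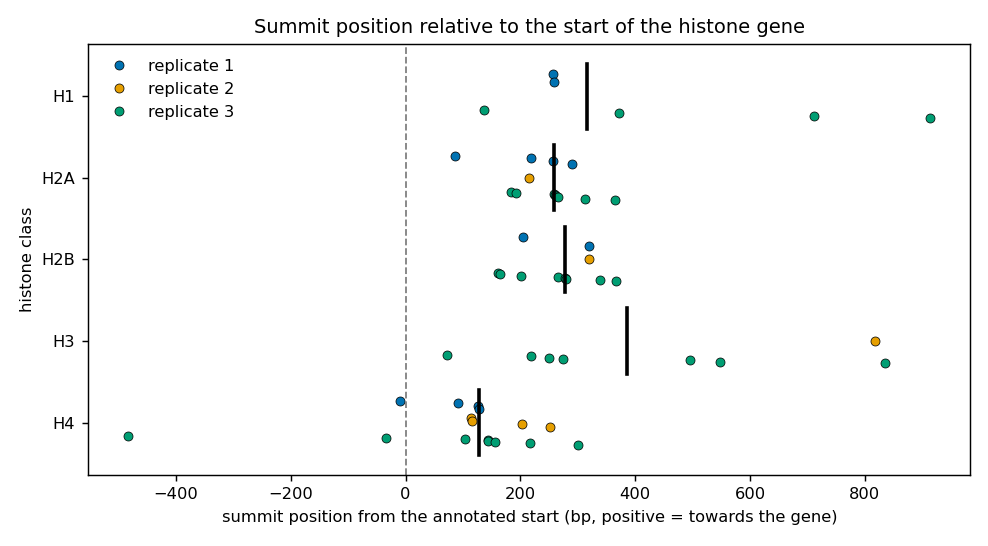
Position of each summit relative to the annotated start of its histone gene (bp, positive into the gene), by class, coloured by library, with a black bar at the median of the class and a dashed line at the start. All points of the H1, H2A, H2B and H3 classes lie right of the start, and 3 H4 points lie left of it. Each summit is plotted at its assigned gene only, so those inside the partner of a diverging pair appear at that partner. The plot holds the 54 summits within 1 kb of the start of that gene.

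Between libraries, summits at the same gene mostly lay within 200 bp of each other, and at no gene on the same base. Over the 15 genes reached in both replicates 1 and 3, the nearest summits were a median of 154 bp apart, from 16 to 657 bp, with 12 of 15 within 200 bp. For the 9 genes of replicates 2 and 3 the median was 99 bp, from 17 to 817 bp, with 6 of 9 within 200 bp. For the 5 genes of replicates 1 and 2 it was 24 bp, from 4 to 656 bp, with 4 of 5 within 200 bp. The 15 genes are all of those reached in replicate 1 and 32.6% of those in replicate 3. Genes counted through the same summits, such as H2BC4 and H2AC6 or H2AC20 and H2AC21, enter these counts and medians separately.

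The median scores of these summits lay at or above the medians of their lists, and the highest far below the list maxima. The medians were 6.14, 6.06 and 6.66 for replicates 1 to 3, against 6.12, 5.57 and 5.58 for each whole list, and 6 of 12, 3 of 7 and 15 of 42 scored below the median of their list. The highest at a histone gene were 12.1, 7.80 and 20.7, against list maxima of 160, 179 and 111. No summit at a histone gene in replicate 1 or 2 was in the top 10% of its list, and 7 of 42 were in replicate 3. Those of highest score in replicate 3 were at H4C11, H4C12, H4C5, H4C15 and H2BC18. All summits near members together made up 0.949%, 0.441% and 0.976% of the summits on assembled chromosomes in replicates 1 to 3.

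The promoters of the histone genes shared several motifs. RefSeq promoters, running from 250 bases before the start to 50 after it, were found for 64 of the 69 members, all but H4C1, H4C3, H2AC12, H3C11 and H3C12. TATAAA, the TATA box, was held on either strand by 65.6% of them, against 11.9% of all 27326 promoters, and CCAAT by 84.4%, against 35.7%. The octamer ATGCAAAT, bound by the factor POU2F1, was held by 40.6%, against 1.81%, and these were 11 of 16 H2A, 14 of 18 H2B, 1 of 11 H3 and 0 of the H1 and H4 promoters. The H3 promoter is that of H3C4, annotated with the same start as H2AC7, so that 1 window counts under both classes. Windows of diverging H2A and H2B genes overlap, so a motif between such genes can count under both. The octamer between H2BC11 and H2AC11 and that between H2BC21 and H2AC20 did so, and the class counts are not of separate sites. ACAAAG and ACAATG, forms of the core that SOX proteins recognise, were held by 15.6% and 9.38% of the histone promoters, against 15.99% and 10.96% of all promoters. Among histone genes reached in at least 2 libraries, 5 of 19 held ACAAAG and 0 held ACAATG, against 4 and 2 of 23 among those reached in 1 library and 1 and 4 of 22 among those reached in none. The 5 are H1-4, the pair H2AC15 and H2BC15, which share a promoter, and the near-copies H4C11 and H4C12. Hits of different motifs overlapped 3 times among 266, and motif letters alone do not show a bound site. Of the 57 summits whose assigned gene has a known start, 2 lay within its promoter window. The motif counts therefore describe promoters, and the sequence under the other summits was not searched.

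The other genes of histone supply were counted from lists chosen with earlier results of these data known. A list of 19 histone genes outside the naming rule was drawn up as replication-independent, which was not checked for each gene. In replicates 1 to 3, 0, 0 and 4 of these 19 had a summit within 1 kb. The 4 of replicate 3 are 21.1%, against 13.3% of all coding genes. The 4 were H2AX, the DNA-damage variant (52 bp, score 5.99), H2AZ2 (233 bp, score 7.57), H3-3A, a gene of the H3.3 variant (427 bp, score 5.95), and MACROH2A1 (419 bp, score 3.60). Factors of histone transcription and mRNA processing had 1, 0 and 3 of 18. These are 5.56%, 0% and 16.7%, near the 3.07%, 2.76% and 13.3% of all coding genes. ERI1, an exonuclease gene whose product trims histone mRNA ends, was reached by replicates 1 and 3 at 351 and 112 bp, and POU2F1 and GON4L had 1 of replicate 3 each. NPAT and SLBP, the stem-loop binding protein gene, had none within 1 kb. Histone chaperones had 2, 0 and 3 of 12, against backgrounds of 3.07%, 2.76% and 13.3%. SUPT16H, a subunit gene of the FACT complex, was reached by replicates 1 and 3 at 285 and 335 bp with scores of 4.15 and 3.94, its partner SSRP1 had 1 of replicate 3 at 240 bp, and NASP had 1 of replicate 1 and HIRA 1 of replicate 3. In none of these lists did a gene have a summit within 1 kb in all 3 libraries, which 0.838% of all coding genes had.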

How the data were processed

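Summits of SOX4 ChIP-seq in BT549 cells were read from 1 list per library. Per the labels, fixation used DSG before formaldehyde, and short paired-end reads came from a NextSeq. The alignment and peak tools named per the submitters' processing notes are BWA, SAMtools and MACS2 (versions not given in the sources used here), and the score deposited by the authors for each summit of 1 bp is a −log10 p or q value; which it is, the calling threshold and any control are not given in the sources used here. The notes name hg19, but contig names and positions are those of GRCh38, and positions are given 1-based on it. Genes and promoters came from RefSeq GRCh38.p14, and 20037 coding symbols on assembled chromosomes were used. Starts and strands came from the promoter table, which matched 64 of 69 members. Distances were taken to either gene end.

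The libraries form 1 group, and the members and lists were chosen with earlier results of these data known. No chance test was run over genes. Differences within libraries were tested by exact two-sided sign-flip permutation over libraries, with Benjamini-Hochberg adjustment over 4 comparisons; the 2 on summit position were added after the data were seen. Genes were named when reached in 2 or more libraries, when apart from the clusters, near the limit or highest by score; others named were chosen after their values were seen. Alternatives changed the distance, the score, the list length, the gene point, shared summits, joining and the libraries used. Python 3.11.15, numpy 2.4.6, pandas 2.3.3 and matplotlib 3.10.9 were used, and distances were tested on simulated data. Read depth is unknown.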

Additional observations from a re-analysis of the deposited data

How the results depend on the processing

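Of 115 values recomputed for 14 results, 93 kept their direction or stayed within 1.5 times the reported count, 22 moved further and 0 reversed. Only the chromosome difference and the H4 difference could reverse, since a count can only stay or move. Replicate 3 reached every member reached by the others, so any-library counts at 1 kb without replicate 1 or 2 could not change. The runs counted members only, so no share of all coding genes stands beside their counts. With 5 kb in place of 1 kb, replicate 2 reached 14 members and all 3 libraries 8. With only summits at or above the median score of their list, replicate 1 reached 7 members, at least 2 libraries 10 and all 3 libraries 0. With lists of equal length, replicate 3 reached 24, at least 2 libraries 12, H2B 6 and H3 5, with 28 regions. With 1 count per shared summit, all 3 libraries gave 3. Leaving out 1 library gave 19 to 46 members in any library, 5 to 15 in at least 2 and 5 to 15 in all that remained, 16 to 44 regions, and by class 2 to 4 for H1, 6 to 12 for H2A, 4 to 10 for H2B, 1 to 10 for H3 and 6 to 10 for H4. The lowest of these were without replicate 3. The excess of chromosome 1 over chromosome 6 was 23.4 to 40.0 percentage points in every alternative run. Distances to the start alone used 64 members. Alternatives for H4 against the other members, and score and length for regions, were added after the data were seen. No pairing of libraries across groups was possible, because the 3 libraries form 1 group with no partner libraries in another. The sign-flip tests were paired within libraries, setting values of the same library against each other. Depth is unknown, so a gene without a summit may be one below detection.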

Other observations

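The cluster spans also hold 13 histone pseudogenes, copies that no longer give a histone. Summits of any library lay inside 0 of the 13. Of the 13, 10 had none within 1 kb, as had 84.9% of all coding genes. The 3 with a summit within 1 kb were H2BC19P, H2BC20P and H2AC9P, each of which lies within 1 kb of a working histone gene or overlaps its annotated span. H2BC19P was 543 and 479 bp from the summits of replicates 1 and 3 inside H2AC18, and H2BC20P 374 and 549 bp from those inside H2AC19. H2AC9P was 269 bp from a replicate 3 summit that lay inside no member. That summit was assigned to H1-3, beyond its downstream end, and lay nearer to H2AC9P than to H1-3.

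The clusters made up a smaller part of the summits of chromosome 1 than of chromosome 6, which was not tested. On chromosome 1 they held 6 of 171 summits of replicate 1 (3.51%), 4 of 183 of replicate 2 (2.19%) and 11 of 511 of replicate 3 (2.15%). On chromosome 6 they held 6 of 49 (12.2%), 3 of 53 (5.66%) and 31 of 296 (10.5%). The clusters differ in size, with 13 members on chromosome 1 and 55 on chromosome 6. Per Mb of span, H2BC18 to H2AC21 on chromosome 1 held 57.0, 38.0 and 104 summits in replicates 1 to 3. The H2AC25 and H2BC26 pair held 0. On chromosome 6, H2AC1 to H4C8 held 7.15, 1.79 and 30.4 per Mb. H2BC11 to H2AC12 held 0, 0 and 262, and H2BC13 to H2BC17 held 23.1, 23.1 and 116. The 100 kb on either side of the chromosome 1 clusters held 3, 2 and 4 summits in replicates 1 to 3, and those of the chromosome 6 clusters held 0 in each library.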
